A study of Mus musculus with 16 samples.

Results

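The genes described here were 10 genes of the meiotic chromosome and of meiotic recombination: Sycp1, Sycp2, Sycp3, Syce1, Hormad1, Rec8, Stag3, Smc1b, Dmc1 and Stra8. They were chosen by name, from the roles their proteins play in meiosis, among 35975 annotated genes. The choice was made with earlier results of these data known. All 10 passed the filter on low counts, as did 18489 genes in all. RNA was measured in mouse embryonic stem cells of the line ES-E14TG2a (E14), in TKO cells on days 0, 2, 4 and 7 and in WT cells on the same days, with 2 biological replicates in each of the 8 groups and 16 libraries in all. TKO is not spelled out in the labels and was read as a triple knockout of the methyltransferases Dnmt1, Dnmt3a and Dnmt3b, and the number of clones is not given. On day 0 both genotypes grew on fibronectin in N2B27 medium with LIF, vitamin C and blockers of Gsk3 and MEK. On later days both had been moved to Fgf2, Activin A and knock-out serum, which drives them toward epiblast-like cells, and they were split again at day 4.

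In meiosis, cohesin complexes with their own subunits lay out each chromosome along an axis, recombinases pair the broken DNA with its homologue, and the synaptonemal complex then zips the homologues together. These genes are used in germ cells of the testis and fetal ovary and are silent in most somatic tissue. Several of them are textbook examples of genes whose promoters gain DNA methylation as the mouse epiblast develops. Embryonic stem cells held with these inhibitors and vitamin C have little DNA methylation, which they gain after the switch to epiblast medium. DNA methylation itself was not among the measurements used here.

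Depth was 33168178 to 47064338 estimated counts per TKO library and 39799498 to 58197630 per WT library. Dnmt1, the maintenance methyltransferase, had between 12 and 17.4 TPM (transcript abundance scaled for depth and length) in the TKO libraries, against 87.4 to 146 TPM in the WT libraries, and was called lower in TKO cells on all 4 days. The de novo enzyme Dnmt3a was called lower in TKO cells on days 0, 2 and 7. The 2 TKO libraries of day 4 stood at 80.9 and 10.8 TPM of Dnmt3a, against 114 and 146 TPM in WT. Dnmt3b, the other de novo enzyme, was called lower in TKO cells on days 2, 4 and 7, and at day 0 had 11.8 and 12.3 TPM in TKO cells and 7.96 and 11.7 TPM in WT cells. A shortened transcript can remain after a gene is inactivated, so these levels are no measure of protein. The libraries that stood furthest apart within a group were those of TKO day 4, with 169 genes of at least 5 CPM (counts scaled for depth) over 2-fold apart, and of WT day 0, with 117. The stem cell genes Pou5f1, Sox2, Nanog and Sall4 were detected in every group, with a summed level of 1103 to 1807 TPM in TKO libraries and 1271 to 1903 TPM in WT libraries. At day 7, 0 of these 4 genes were called higher in TKO cells and 3 lower, against 23.4% and 21.1% of all genes. On that day Pou5f1 averaged 855 TPM in TKO cells and 1035 TPM in WT cells, and Sox2 14.5 and 45.7 TPM.

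The promoter windows of the genes are shown because CpG sites are where vertebrate DNA methylation sits, and because the called genes with the largest day 7 differences, Sycp2, Syce1, Hormad1 and Rec8, can be set beside Sycp3 and Dmc1, which were called lower in TKO cells on days 0, 2 and 4. Each window runs from 250 bases before to 50 after the RefSeq gene start on GRCm38.p6, 300 bases in all, is written 5′ to 3′ on the gene's strand, and has its CpG sites in capitals. The windows lie at chr2:178407609-178407908 (minus strand) for Sycp2, chr7:140787805-140788104 (minus strand) for Syce1, chr3:95559427-95559726 (plus strand) for Hormad1, chr14:55617916-55618215 (plus strand) for Rec8, chr10:88459337-88459636 (plus strand) for Sycp3 and chr15:79605060-79605359 (minus strand) for Dmc1.
Sycp2: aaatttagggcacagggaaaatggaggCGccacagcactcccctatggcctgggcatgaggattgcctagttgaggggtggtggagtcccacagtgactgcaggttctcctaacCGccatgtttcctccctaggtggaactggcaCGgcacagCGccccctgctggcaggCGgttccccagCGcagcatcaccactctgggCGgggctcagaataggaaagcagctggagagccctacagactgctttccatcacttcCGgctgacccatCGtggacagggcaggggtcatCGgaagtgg
Syce1: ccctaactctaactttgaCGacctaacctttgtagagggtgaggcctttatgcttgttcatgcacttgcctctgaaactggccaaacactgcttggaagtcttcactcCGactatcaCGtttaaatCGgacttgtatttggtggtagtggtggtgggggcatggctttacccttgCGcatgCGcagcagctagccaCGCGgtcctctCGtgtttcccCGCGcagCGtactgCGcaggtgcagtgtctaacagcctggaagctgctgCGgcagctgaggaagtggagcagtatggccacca
Hormad1: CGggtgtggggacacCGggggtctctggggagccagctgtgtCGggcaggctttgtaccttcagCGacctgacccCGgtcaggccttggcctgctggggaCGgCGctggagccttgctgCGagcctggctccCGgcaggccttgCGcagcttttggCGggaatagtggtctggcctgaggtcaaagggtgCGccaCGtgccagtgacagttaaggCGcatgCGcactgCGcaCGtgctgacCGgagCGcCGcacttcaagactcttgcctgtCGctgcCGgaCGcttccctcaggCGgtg
Rec8: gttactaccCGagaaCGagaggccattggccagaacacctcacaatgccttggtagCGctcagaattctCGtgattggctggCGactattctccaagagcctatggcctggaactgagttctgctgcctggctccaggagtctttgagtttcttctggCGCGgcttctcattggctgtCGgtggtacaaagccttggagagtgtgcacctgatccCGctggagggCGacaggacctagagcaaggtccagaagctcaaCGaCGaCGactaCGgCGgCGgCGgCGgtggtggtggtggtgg
Sycp3: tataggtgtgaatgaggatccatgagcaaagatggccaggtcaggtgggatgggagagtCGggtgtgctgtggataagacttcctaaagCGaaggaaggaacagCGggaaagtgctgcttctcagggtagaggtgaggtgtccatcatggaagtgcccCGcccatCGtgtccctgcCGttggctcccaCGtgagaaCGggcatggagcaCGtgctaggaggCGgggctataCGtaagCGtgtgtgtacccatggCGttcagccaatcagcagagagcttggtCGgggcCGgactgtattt
Dmc1: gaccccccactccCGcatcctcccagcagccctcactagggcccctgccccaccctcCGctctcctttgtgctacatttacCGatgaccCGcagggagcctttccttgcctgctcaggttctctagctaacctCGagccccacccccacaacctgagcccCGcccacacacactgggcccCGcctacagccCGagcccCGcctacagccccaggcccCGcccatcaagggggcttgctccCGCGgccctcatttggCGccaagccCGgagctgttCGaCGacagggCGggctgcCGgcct

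All 10 genes matched a RefSeq window, and all 10 windows held at least 10 CpG sites. Over 32841 windows the median was 7 and the quartiles were 3 and 20. The windows of Stag3 and Stra8 begin at chr5:138280259 and chr6:34920698, after the GENCODE starts of these genes at 138280240 and 34920163. Stag3, with 30 sites, and Smc1b, with 29, were the richest, ahead of Hormad1 with 24 and Sycp1 with 21. Rec8 and Dmc1 held 18 each, Sycp3 15 and Syce1 14, while Sycp2 and Stra8 held 10 each. The ratio of observed to expected CpG ran from 0.363 in Sycp2 to 1.08 in Smc1b. The letters CACGTG, the E-box read by the Mga and Max pair, are the same on both strands and were found in 7.15% of all windows. They occurred 2 times in Hormad1, 2 times in Sycp3, and 1 time each in Stag3 and Sycp1, and in none of the other 6 windows. The letters TCCCGC, an E2F core, searched on both strands with no overlap with the E-box letters, were found in 20% of all windows and in the windows of 7 of the 10 genes, all but Sycp2, Syce1 and Stra8. Such matches describe the letters and do not show that a factor was bound.

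The genotype difference turned over the course. At day 0, 7 of the 10 genes were called lower in TKO cells than in WT cells and 0 higher, where 8.16% of all genes tested were called lower and 4.52% higher. At day 2, 3 were called lower and 0 higher, against 5.52% and 7.91% of all genes. At day 4, 6 genes were called higher in TKO cells and 2 lower, against 17.8% and 11.1% of all genes. At day 7, 6 were called higher and 1 lower, against 23.4% and 21.1% of all genes. The median log2 fold change of the 10 genes, TKO over WT, was -0.76, -0.64, 0.85 and 2.75 on days 0, 2, 4 and 7, where the median over all genes tested was -0.03, -0.01, 0.01 and 0.00. With Hormad1 at its bound the day 7 median was also 2.75. Their summed level at day 7 was 84.8 to 86.3 TPM in the TKO libraries, against 24.5 to 29.6 TPM in the WT libraries, while at day 0 it was 122 to 123 TPM in TKO libraries and 164 to 175 TPM in WT libraries. Calls are edgeR results with a Benjamini-Hochberg adjusted p below 0.05, the adjustment covering every gene in the fit. Leaving out WT replicate 1 or WT replicate 2 of day 0, a pair that stood apart, left 6 genes called at day 0, with 5 lower and Sycp1 higher when replicate 2 was out, and leaving out either TKO library of that day left 3. With only the day 0 libraries in the fit, 2 were called. At day 2, 1 was called without TKO replicate 2 or WT replicate 2, and 6 with only the libraries of that day. At day 4, leaving out TKO replicate 1 or WT replicate 1 gave 7 calls, and leaving out replicate 2 of either genotype gave 8. The day 7 count was 7 whichever library of that day was left out. In bulk RNA, fewer cells that express a gene and less RNA per cell cannot be told apart.

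**Figure D1:**
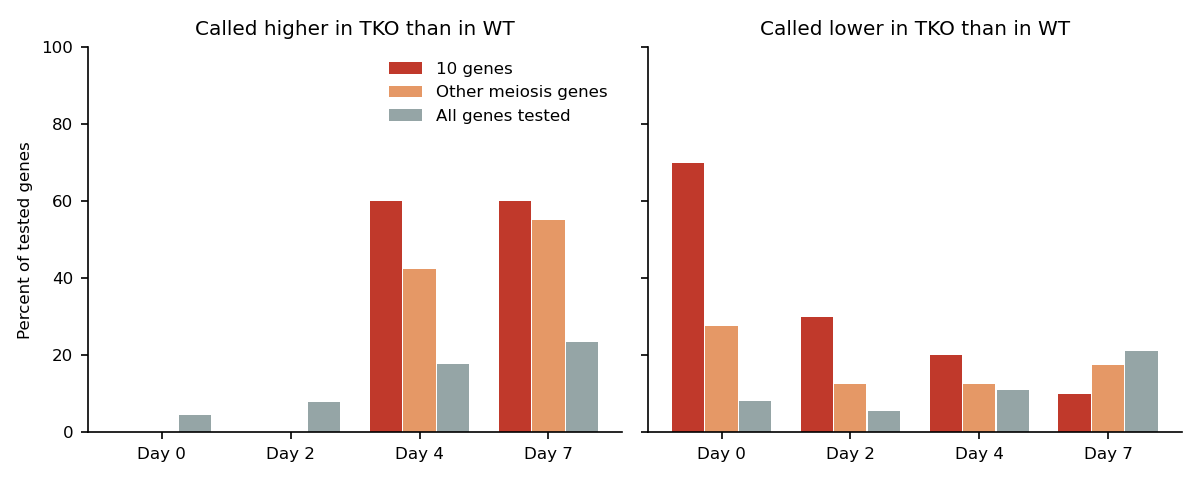
Percent of tested genes called higher (left) or lower (right) in TKO cells than in WT cells on each day, for the 10 genes (red), 40 other listed meiosis genes (orange) and all 18489 genes tested (grey). The 10 genes had 0 called higher on days 0 and 2 and 6 called higher on days 4 and 7, while the number called lower was 7, 3, 2 and 1 in the order of the days.

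Among the genes of the synaptonemal complex, Sycp2 and Syce1 were the most apart at day 7, Sycp3 was lower in TKO cells up to day 4, and no difference was called for Sycp1. Sycp2 (chr2:178345293-178407685) encodes a protein of the lateral element, the part of the complex that lies along each chromosome. In TKO cells it had 0.0647 and 0.0362 TPM at day 0, 0.833 and 0.408 at day 2, 2.32 and 1.82 at day 4, and 7.05 and 6.92 at day 7. In WT cells it had 0.0834 and 0.396 TPM at day 0, 1.23 and 1.39 at day 2, 1.16 and 0.833 at day 4, and 0.0298 and 0.0198 at day 7. The TKO libraries were below both WT libraries on days 0 and 2 and above both on days 4 and 7, and the groups did not overlap on any day. The log2 fold change, TKO over WT, was -1.32 ± 0.38 (SE) at day 0 (edgeR adjusted p = 0.0363), -1.03 ± 0.22 at day 2 (0.00828), 1.11 ± 0.20 at day 4 (0.00122) and 7.63 ± 0.33 at day 7 (1.92e-09). Sycp2 counts were low at day 0, with 9 and 5 in TKO cells against 15 and 24 in WT cells, and that call did not hold without WT replicate 2 (adjusted p = 0.175), without TKO replicate 1 (0.0772) and without TKO replicate 2 (0.279). Its day 2 call did not hold without WT replicate 2 (0.0615) or TKO replicate 2 (0.119). At day 7 the TKO libraries held 514 and 551 counts of Sycp2, against 3 in each WT library. With so few WT counts, the SE of that day falls short of the counting error.

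Syce1 (chr7:140777229-140787852), a protein of the central element that joins the paired chromosomes, was held in TKO cells and lost in WT cells. It had 10.5 and 12 TPM at day 0, 16.2 and 16 at day 2, 15 and 12.7 at day 4, and 20.5 and 18.2 at day 7 in TKO cells. The WT cells had 8.87 and 8.46 TPM at day 0, 22.9 and 22.1 at day 2, 2.38 and 4.6 at day 4, and 0 and 0.0289 at day 7. The TKO libraries lay below the WT libraries at day 2 and well above them at days 4 and 7. No difference was called at day 0 (log2 fold change 0.22 ± 0.25, edgeR adjusted p = 0.635) or at day 2 (-0.63 ± 0.24, adjusted p = 0.102), and Syce1 was called higher in TKO cells at day 4 (1.95 ± 0.27, adjusted p = 0.000136). With only the day 2 libraries in the fit, Syce1 was called lower in TKO cells (-0.61, edgeR adjusted p = 0.00283). At day 7 the TKO libraries held 971 counts together and the WT libraries 1, a ratio of 1132 with an exact binomial 95% interval of 203 to 44771 (adjusted p = 2.93e-08).

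Sycp3 (chr10:88459569-88473236), the other main lateral element protein, ran the opposite way to Syce1 at day 4. In TKO cells it had 15.7 and 14.5 TPM at day 0, 4.62 and 5.31 at day 2, 10.7 and 13 at day 4, and 3.36 and 4.18 at day 7. In WT cells it had 24.5 and 23.2 TPM at day 0, 20.4 and 20.1 at day 2, 65.6 and 75.5 at day 4, and 4.23 and 4.93 at day 7. The peak at day 4 was seen in both WT libraries, and there the TKO libraries stood furthest below them. Sycp3 was called lower in TKO cells at day 0 (log2 fold change -0.84 ± 0.15, edgeR adjusted p = 0.00295), day 2 (-2.20 ± 0.16, adjusted p = 3.05e-05) and day 4 (-2.66 ± 0.15, adjusted p = 1.54e-07). At day 7 the difference was not called (-0.43 ± 0.19, adjusted p = 0.0773). An exon of Chpt1, a phospholipid enzyme gene on the opposite strand, overlaps 420 bases of an Sycp3 exon, and 46.5% of the 31-base words of Sycp3 transcripts also occur in another gene's transcripts, all of them in Chpt1. Chpt1 itself had 7.42 and 6.94 TPM in TKO cells and 8.74 and 7.46 TPM in WT cells at day 4, and whether strand was used in the authors' counting is not given in the sources used here.

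Sycp1 (chr3:102818499-102936100), the transverse filament that spans the complex, showed no called difference in any comparison in the fit of all 16 libraries. It had 4.07 and 4.55 TPM at day 0, 4.39 and 4.5 at day 2, 4.43 and 3.8 at day 4, and 6.71 and 6.66 at day 7 in TKO cells. The WT cells had 1.91 and 6.25 TPM at day 0, 6.04 and 3 at day 2, 4.11 and 4.01 at day 4, and 3.43 and 4.03 at day 7. The WT libraries of days 0 and 2 were far apart, and the TKO libraries fell between them. At day 0 the log2 fold change was -0.02 ± 0.37 (edgeR adjusted p = 0.997), and without WT replicate 2 it was 1.00 (adjusted p = 0.0138). At day 7 the groups overlapped neither in TPM nor in CPM. The log2 fold change was 0.25 ± 0.37 (edgeR adjusted p = 0.626), and with an offset for effective transcript length it was 0.66 (adjusted p = 0.150). With only the day 7 libraries in the fit it was 0.28 and called higher in TKO cells (adjusted p = 0.0495). A processed pseudogene, Sycp1-ps1, shares 468 of the 3580 31-base words of Sycp1 transcripts and had at most 0.0362 TPM in any library.

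**Figure D2:**
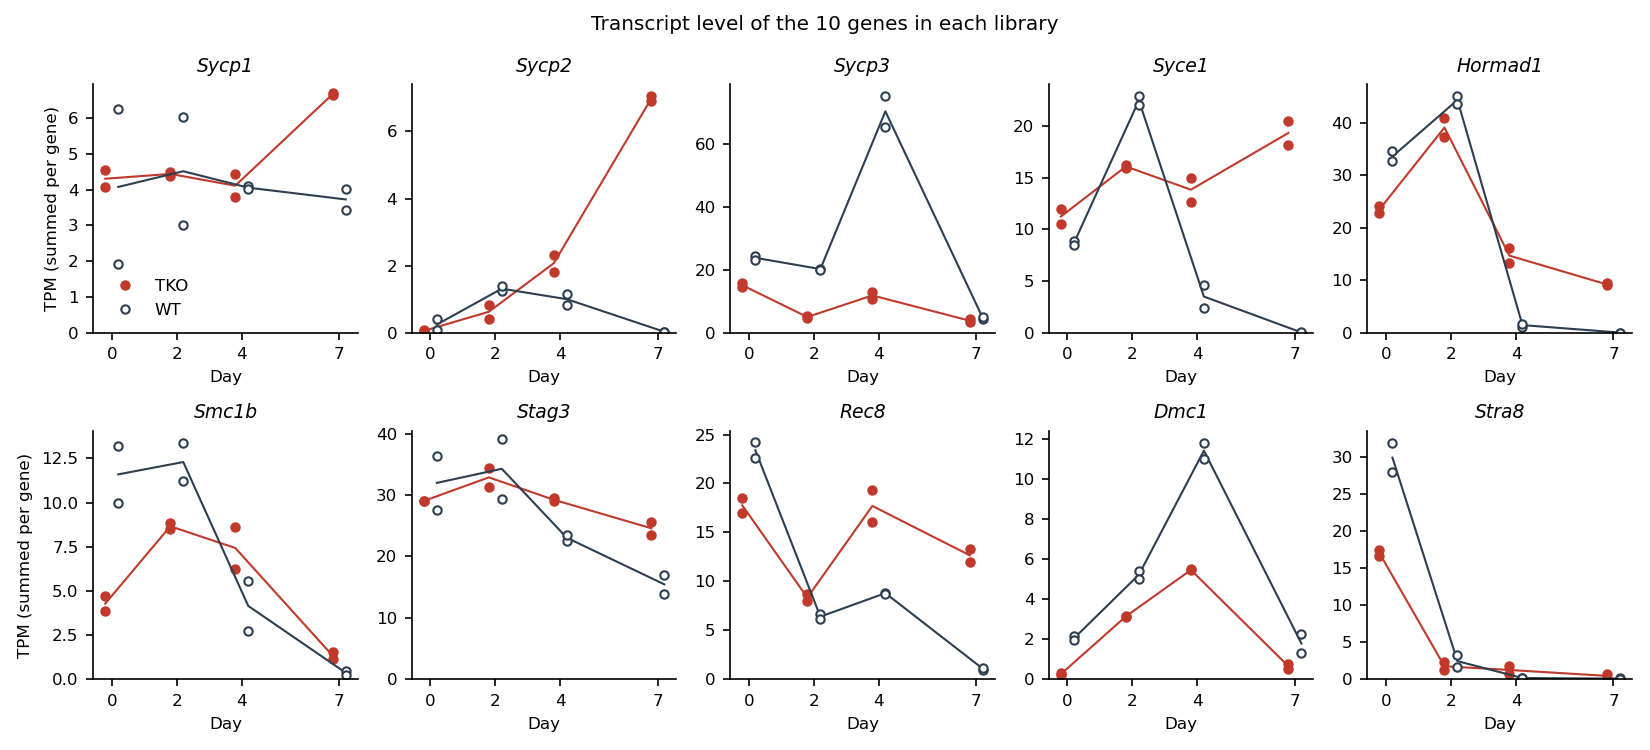
TPM per gene (vertical axis, separate scale per panel, from 0) against day for each of the 10 genes, with TKO libraries as filled red points, WT libraries as open dark points, and lines through the mean of each group of 2. Sycp2, Syce1 and Rec8 were at 6.92 TPM or more in TKO cells at day 7, when the WT libraries were at 1.13 TPM or less, and Sycp3 and Dmc1 peaked at day 4 in WT cells.

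Hormad1 (chr3:95559677-95587671) encodes a HORMA domain protein of the unpaired chromosome axis that is removed as the homologues pair. In TKO cells it had 22.7 and 24.2 TPM at day 0, 40.8 and 37.3 at day 2, 16.1 and 13.2 at day 4, and 8.97 and 9.36 at day 7. In WT cells it had 32.6 and 34.5 TPM at day 0, 45 and 43.6 at day 2, 1.15 and 1.7 at day 4, and 0 in both libraries at day 7. The WT libraries were the higher on days 0 and 2 and the lower on days 4 and 7, and the groups did not overlap on any day. Hormad1 was called lower in TKO cells at day 0 (log2 fold change -0.68 ± 0.14, edgeR adjusted p = 0.00876) and higher at day 4 (3.30 ± 0.18, adjusted p = 1.90e-07), with no call at day 2 (-0.36 ± 0.14, adjusted p = 0.112). With only the day 2 libraries in the fit, it was called lower in TKO cells (-0.33, edgeR adjusted p = 0.0384). Hormad1 was no longer called at day 0 without TKO replicate 1 (adjusted p = 0.101) or TKO replicate 2 (0.0592). At day 7 the TKO libraries held 490 counts and the WT libraries 0, which makes Hormad1 at least 190-fold higher in TKO cells with the WT group set to a floor of 3 counts (adjusted p = 6.37e-09). A processed pseudogene, Gm15529, shares 553 of the 1757 31-base words of Hormad1 transcripts and had at most 1.54 TPM in any library, so a small part of the level may be exchanged between them in the counting.

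The 3 meiotic cohesin genes were all called lower in TKO cells at day 0 and all called higher at day 7, by different amounts. Rec8 (chr14:55618037-55625395), the kleisin that closes the meiotic ring, had 18.5 and 17 TPM at day 0, 7.99 and 8.66 at day 2, 19.3 and 16.1 at day 4, and 12 and 13.3 at day 7 in TKO cells. In WT cells it had 24.2 and 22.6 TPM at day 0, 6.62 and 6.15 at day 2, 8.85 and 8.72 at day 4, and 0.979 and 1.13 at day 7. Both genotypes were lower at day 2 than at days 0 and 4. The TKO libraries were near their day 0 level again at day 4, while the WT libraries were not and were lowest at day 7. The log2 fold change, TKO over WT, was -0.59 ± 0.14 at day 0 (edgeR adjusted p = 0.0131), 0.30 ± 0.14 at day 2 (0.180), 0.93 ± 0.14 at day 4 (0.000248) and 3.39 ± 0.17 at day 7 (7.68e-09). Without WT replicate 1 the day 0 value was -0.42 (adjusted p = 0.0986), and the call was also lost without TKO replicate 1 (0.0986) or TKO replicate 2 (0.108).

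Stag3 (chr5:138280240-138312393), the meiotic subunit that binds the outside of the ring, had the highest mean level of the 10 genes, 27.6 TPM over the 16 libraries, and on days 0 and 7 the smallest called difference of the day. In TKO cells it had 29.1 and 29 TPM at day 0, 31.4 and 34.4 at day 2, 29.5 and 29 at day 4, and 25.7 and 23.5 at day 7. Levels in WT cells were 27.6 and 36.4 TPM at day 0, 39.2 and 29.4 at day 2, 22.6 and 23.5 at day 4, and 13.9 and 17 at day 7. On the TPM scale the groups overlapped on days 0 and 2, and the TKO libraries were above both WT libraries on days 4 and 7. Stag3 was called higher in TKO cells at day 7 (log2 fold change 0.76 ± 0.09, edgeR adjusted p = 1.29e-05), with no call at day 2 (-0.07 ± 0.09, adjusted p = 0.637) or day 4 (0.15 ± 0.09, adjusted p = 0.220). At day 0 it was called lower (-0.33 ± 0.09, adjusted p = 0.0226). The call was lost with an offset for effective transcript length (-0.30, adjusted p = 0.107). It was also lost with only the day 0 libraries in the fit (-0.30, adjusted p = 0.164). Leaving out WT replicate 2 (-0.26), TKO replicate 1 (-0.29) or TKO replicate 2 (-0.34) likewise ended the call.

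Smc1b (chr15:85064689-85131964), the meiotic SMC arm of the ring, had 3.87 and 4.68 TPM at day 0, 8.5 and 8.82 at day 2, 8.62 and 6.24 at day 4, and 1.12 and 1.51 at day 7 in TKO cells. The WT levels were 10 and 13.2 TPM at day 0, 13.4 and 11.2 at day 2, 2.72 and 5.57 at day 4, and 0.468 and 0.242 at day 7. The TKO libraries were below both WT libraries on days 0 and 2 and above both on days 4 and 7. The log2 fold change was -1.73 ± 0.26 at day 0 (edgeR adjusted p = 0.00118), -0.65 ± 0.25 at day 2 (0.102), 0.77 ± 0.25 at day 4 (0.0372) and 2.25 ± 0.42 at day 7 (0.000892). With only the day 2 libraries in the fit, Smc1b was called lower in TKO cells (-0.62, edgeR adjusted p = 0.00150). At day 4 Smc1b was no longer called without WT replicate 1 (0.32, adjusted p = 0.201) or TKO replicate 1 (0.52, adjusted p = 0.242).

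Dmc1 (chr15:79561497-79605109), the meiotic recombinase that carries out strand exchange with the homologue, was called lower in TKO cells on all 4 days. It had 0.286 and 0.211 TPM at day 0, 3.12 and 3.14 at day 2, 5.47 and 5.42 at day 4, and 0.755 and 0.527 at day 7 in TKO cells. The WT cells had 2.13 and 1.93 TPM at day 0, 5.41 and 5.01 at day 2, 11.8 and 11 at day 4, and 1.29 and 2.26 at day 7. Both genotypes peaked at day 4, and both TKO libraries were below both WT libraries on each day. The log2 fold change was -3.07 ± 0.26 at day 0 (edgeR adjusted p = 1.04e-05), -0.82 ± 0.19 at day 2 (0.0119), -1.14 ± 0.18 at day 4 (0.000389) and -1.22 ± 0.25 at day 7 (0.00119). Dmc1 at day 2 was no longer called without WT replicate 2 (0.0987), TKO replicate 1 (0.0785) or TKO replicate 2 (0.103).

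Stra8 (chr6:34920163-34939344), a retinoic acid responsive gene needed for germ cells to start meiosis, fell in both genotypes on leaving the day 0 medium. In TKO cells it had 17.4 and 16.6 TPM at day 0, 1.22 and 2.25 at day 2, 1.78 and 0.678 at day 4, and 0.194 and 0.669 at day 7. The WT levels were 31.9 and 27.9 TPM at day 0, 1.61 and 3.24 at day 2, 0.0811 and 0.191 at day 4, and 0.12 and 0 at day 7. The day 0 libraries stood above all others in both genotypes. The genotype difference was called only at day 4 (log2 fold change 3.78 ± 0.72, edgeR adjusted p = 0.00173), from 67 and 21 counts in TKO cells against 3 and 4 in WT cells. At day 0 the log2 fold change was -0.94 ± 0.34 (adjusted p = 0.0890) and at day 2 -0.70 ± 0.42 (adjusted p = 0.295). At day 7 there were 10 counts in TKO cells and 1 in WT cells, a ratio of 11.7 with an exact binomial 95% interval of 1.66 to 506 that covers counting error only (adjusted p = 0.121).

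**Figure D3:**
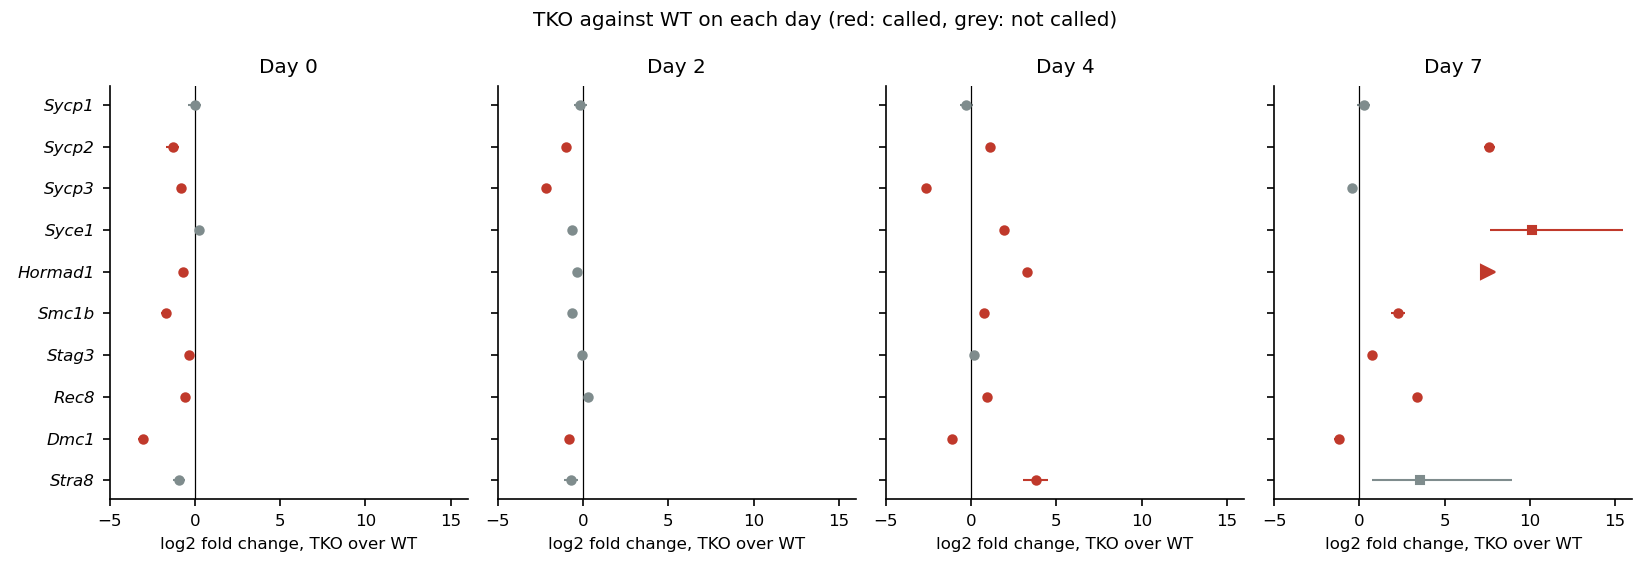
Log2 fold change, TKO over WT, of each gene on each day, with called genes in red and others in grey. Circles are fitted values with their SE, squares are ratios of low counts with a 95% exact binomial interval, and the triangle at day 7 is the lower bound of 190-fold for Hormad1. Called values sit left of 0 on days 0 and 2 and mostly right of 0 on days 4 and 7, with Dmc1 left of 0 on every day.

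Within TKO cells the genes went different ways after day 0, in numbers near the shares of all genes on days 2 and 4. At day 2, 4 rose (Dmc1, Sycp2, Smc1b and Hormad1) and 3 fell (Stra8, Sycp3 and Rec8), where 31.5% of all genes rose and 25.5% fell. At day 4, 3 rose (Sycp2, Dmc1 and Smc1b) and 3 fell (Stra8, Hormad1 and Sycp3), against 34.4% and 28.6% of all genes. The day 4 call of Sycp3 (-0.42 ± 0.15) was lost without TKO day 0 replicate 1 (edgeR adjusted p = 0.127) or TKO day 4 replicate 1 (0.184), and that of Smc1b (0.87 ± 0.26) without TKO day 0 replicate 1 (0.0561), TKO day 0 replicate 2 (0.0538) or TKO day 4 replicate 1 (0.101). At day 7, Sycp2 and Dmc1 were above day 0 and 6 genes (Stra8, Sycp3, Smc1b, Hormad1, Rec8 and Stag3) below it, against 36.1% and 31.7% of all genes. The log2 fold change of Sycp2, day 7 over day 0, was 6.20 ± 0.29 in TKO cells (edgeR adjusted p = 3.86e-10). That of Dmc1 was 0.84 ± 0.31 (adjusted p = 0.0329) and was lost without TKO day 0 replicate 2 (0.272) or TKO day 7 replicate 1 (0.372). It was also lost under the DESeq2 Wald test (0.0581), when low genes were kept in (0.0531) and in a fit of the TKO day 0 and day 7 libraries alone (0.0983). Syce1, at 0.53 ± 0.25 (adjusted p = 0.0758), and Sycp1 were the genes with no call.

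Within WT cells the end point was lower for nearly all of them. At day 2, 4 genes rose (Sycp2, Syce1, Dmc1 and Hormad1) and 2 fell (Stra8 and Rec8), numbers near the 32.9% and 28.6% of all genes. The day 2 rise of Hormad1 (0.36 ± 0.14, edgeR adjusted p = 0.0381) was lost with a replicate block (0.0535) and with an offset for effective transcript length (0.0840). It was also lost with only the libraries compared in the fit (0.0870). Leaving out WT day 0 replicate 2 (0.25), WT day 2 replicate 1 (0.43) or WT day 2 replicate 2 (0.29) likewise ended the call. At day 4, 3 rose (Sycp2, Dmc1 and Sycp3) and 6 fell, against 31.9% and 31.2% of all genes. At day 7, 0 rose and 9 fell, all but Sycp1, against 32.9% and 33.2% of all genes. The fall of Dmc1 (-1.01 ± 0.21) was lost with an offset for effective transcript length (-0.47, adjusted p = 0.130), and its TPM values on these days overlapped. The median log2 fold change of the 10 genes, day 7 over day 0, was -0.57 in TKO cells and -3.71 in WT cells, where all genes tested had 0.04 and -0.03. At day 7, Hormad1 was at least 924-fold lower than at day 0 in WT cells, from 0 and 2567 counts. Syce1 was at a ratio of 0.00149 (95% interval 3.76e-05 to 0.00832) and Stra8 at 0.000429 (1.09e-05 to 0.00239), each with 1 count left. Sycp1, at -0.28 ± 0.37, depended on which WT day 0 library was kept: it was -0.86 (adjusted p = 0.00449) without replicate 1 and 0.76 (0.0194) without replicate 2.

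As a share of the day 0 level on the CPM scale, Rec8 stood at 62.7% at day 7 in TKO cells and at 3.95% in WT cells. Stag3 stood at 72.3% in TKO cells and 33.8% in WT cells, and Smc1b at 23.6% in TKO cells and 1.49% in WT cells. Hormad1 stood at 33% in TKO cells and at 0 in WT cells. Sycp3 was alike in both, at 20.3% in TKO cells and 15.3% in WT cells, and Stra8 was under 1% in both, at 0.959% in TKO cells and 0.0428% in WT cells.

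The change of the genotype difference with time was tested as an interaction. Between day 0 and day 2 it was called for 3 genes, upward for Dmc1 (2.25 ± 0.32 on the log2 scale, edgeR adjusted p = 0.00135) and Rec8 (0.89 ± 0.20, adjusted p = 0.0152) and downward for Sycp3 (-1.36 ± 0.22, adjusted p = 0.00239), against 5.76% of all genes upward and 1.8% downward. Between day 0 and day 4 it was called upward for 8 genes and downward for Sycp3, against 11.6% and 4.67%. Between day 0 and day 7 it was called upward for 7 genes and downward for 0, against 15.8% and 11.3%. The 7 genes were Sycp2, Syce1, Hormad1, Rec8, Stag3, Smc1b and Dmc1. Dmc1 is among them because its deficit in TKO cells was larger at day 0 than at day 7. These 3 contrasts share the day 0 libraries, so they are not independent of each other.

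Set against the cohesin subunits that dividing cells use, the meiotic forms were mostly the minor ones. Mean TPM of Rec8 was 10.1% of that of Rad21, the mitotic kleisin, in TKO cells at day 7 and 0.881% in WT cells. Smc1b was at 1.24% of Smc1a in TKO cells and 0.362% in WT cells on that day, and at 5.26% in TKO cells and 15.8% in WT cells at day 0. Stag3 was the exception in level, at 121% of Stag2 in TKO cells and 136% in WT cells at day 0, and at 28.1% in TKO cells and 15% in WT cells at day 7. Against Stag1 it was at 111% in TKO cells and 121% in WT cells at day 2, and at 47.5% in TKO cells and 35.1% in WT cells at day 7. Of 5 cohesin genes that dividing cells use, 0 were called on days 0 and 2, 3 were called lower in TKO cells at day 4 and 2 at day 7. Smc3, among them, has no counterpart in the genes described here. Of all genes tested, 11.1% were called lower at day 4 and 21.1% at day 7. The called cohesin genes were Stag1, Stag2 and Smc3 at day 4 and Stag2 and Smc3 at day 7, with log2 fold changes between -0.43 and -0.22. At day 0 the mitotic genes with the highest mean levels were Rad21, at 151 to 154 TPM in TKO libraries and 116 to 152 TPM in WT libraries at day 0, and Smc1a, at 81 to 81.6 TPM in TKO libraries and 63 to 84.3 TPM in WT libraries. At day 2, Rad21 had 104 to 105 TPM in TKO libraries and 90.7 to 101 TPM in WT libraries.

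**Figure D4:**
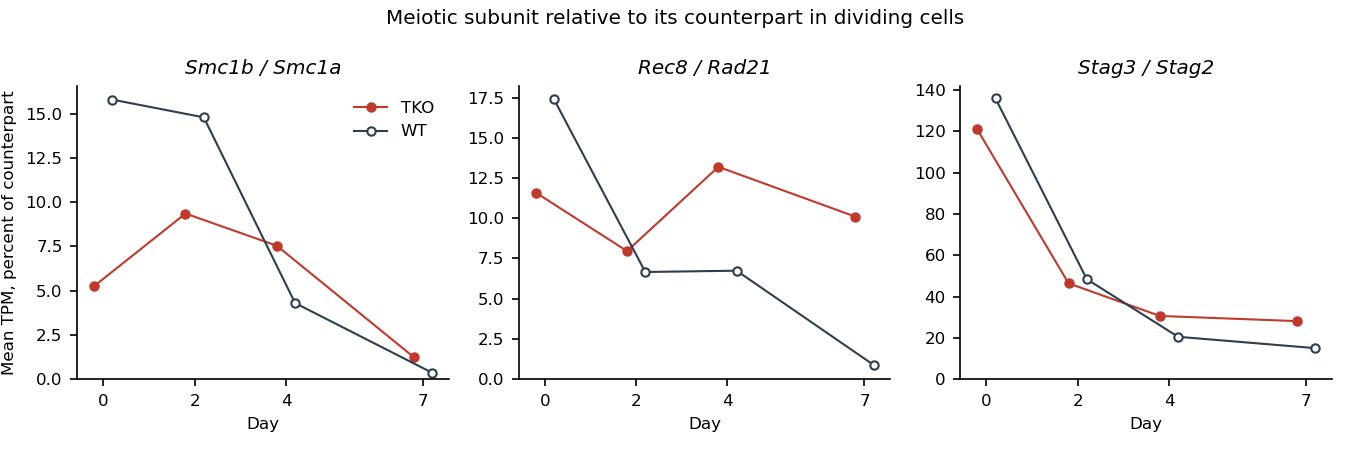
Mean TPM of a meiotic subunit as a percent of the mean TPM of its counterpart in dividing cells (vertical axis, from 0, separate scale per panel) against day, with TKO groups in filled red and WT groups in open dark points. Rec8 relative to Rad21 ended at 10.1% in TKO cells and 0.881% in WT cells, and Stag3 started above 100% of Stag2 in both.

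The 40 other listed meiosis genes, all of which were tested, moved in the same sense over the course, with smaller medians. They had 0 genes called higher and 11 lower in TKO cells at day 0, 0 and 5 at day 2, 17 and 5 at day 4, and 22 and 7 at day 7. Of all genes tested, 4.52% were called higher and 8.16% lower at day 0, and 7.91% and 5.52% at day 2. The shares were 17.8% and 11.1% at day 4, and 23.4% and 21.1% at day 7. The numbers of the 40 genes called lower on days 4 and 7 were near these shares. Their median log2 fold change, TKO over WT, was -0.38, -0.12, 0.11 and 0.75 in the order of the days, and the day 7 median was also 0.75 with genes at 0 counts set to their bound. At day 0 the lower genes with the smallest adjusted p were 4930447C04Rik (Six6os1, a central element gene, -1.02 ± 0.16), Meiob (a DNA-binding partner of Spata22 in recombination, at 0.0142 CPM in TKO cells and 0.777 CPM in WT cells) and Msh5 (a crossover factor, -1.15 ± 0.18). At day 2 they were Meioc (a germ cell factor that sustains meiotic prophase, -1.89 ± 0.26), Zcwpw1 (a reader of marks left by Prdm9, -0.77 ± 0.13) and Rad21l (another meiotic kleisin, -2.54 ± 0.50). With only the libraries of the day in the fit the day 0 count was 3, and without WT replicate 1, TKO replicate 1 or TKO replicate 2 it was 6, 5 and 4. The day 2 count was 3 without WT replicate 2 or TKO replicate 1 and 1 without TKO replicate 2.

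At day 4 the listed genes called higher with the smallest adjusted p were Rec114 (a partner of the break-forming machinery, 3.36 ± 0.25), Tex11 (an X-linked crossover gene, 2.41 ± 0.17) and Tex12 (a central element gene, 3.68 ± 0.34), and those called lower were Msh5 (-0.75 ± 0.17), Mei1 (needed for meiotic breaks, -2.17 ± 0.55) and Mnd1 (a cofactor of Dmc1, -0.51 ± 0.15). At day 7 those called higher were Tex11, with 674 counts in TKO cells and 0 in WT cells and so at least 262-fold higher, AI481877 (Shoc1, a crossover factor, 4.65 ± 0.26) and Rec114 (5.46 ± 0.32). Those called lower were Syce2 (a central element gene, at 18.3 CPM in TKO cells and 36.5 CPM in WT cells), Mnd1 (-1.03 ± 0.16) and Sgo2a (a protector of centromere cohesion, -0.50 ± 0.09). Spo11, which encodes the enzyme that makes the breaks, was low throughout and stood at 1.02 CPM in TKO cells and 0.121 CPM in WT cells at day 7 (3.04 ± 0.68, edgeR adjusted p = 0.00283).

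Genes that respond to retinoic acid were described because Stra8 is among them. Of 7 such genes, 0 were called at day 0 and 1, Stra6, a retinol transporter, was called lower in TKO cells at day 2 (log2 fold change -0.90 ± 0.25). At day 0 the 2 with the highest mean levels were Crabp2, at 2.12 TPM in TKO cells and 3.17 TPM in WT cells, and Dhrs3, at 1.38 TPM in TKO cells and 2.85 TPM in WT cells. At day 4, Cyp26a1 (3.53 ± 1.00) and Cyp26b1 (1.41 ± 0.48), which degrade retinoic acid, were called higher in TKO cells, on the day when Stra8 was also called higher. The TKO libraries stood far apart for Cyp26a1, which averaged 3.38 ± 4.06 CPM in TKO cells and 0.308 ± 0.215 CPM in WT cells (SD, n = 2 each). At day 7, 3 were called higher (Hoxb1, Dhrs3 and Cyp26b1) and 3 lower (Stra6, Rarb and Cyp26a1), with Cyp26a1 at 27.1 TPM in TKO cells and 148 TPM in WT cells. Of all genes tested, 5.52% were called lower at day 2. The shares called higher and lower were 17.8% and 11.1% at day 4, and 23.4% and 21.1% at day 7. Whether the levels of the retinoic acid genes bear on Stra8 was not tested.

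Markers of other cells were measured beside the 10 genes. Of all genes tested, 4.52% were called higher and 8.16% lower in TKO cells at day 0. The shares were 17.8% and 11.1% at day 4, and 23.4% and 21.1% at day 7. The summed level of the later germ cell markers Ddx4, Dazl, Piwil2 and Nanos2 was 64.8 to 65.8 TPM in TKO libraries and 92.3 to 123 TPM in WT libraries at day 0, and 42.8 to 45.3 TPM in TKO libraries and 0.402 to 0.588 TPM in WT libraries at day 7. Of these 4 markers 3 were tested, all 3 were called higher in TKO cells at day 7, and Nanos2 had 0 counts in both genotypes on that day. The 7 spermatocyte and spermatid markers summed to 10.6 to 11.6 TPM in TKO libraries and 0.654 to 1.07 TPM in WT libraries at day 7, with Tex101, Ldhc and Piwil1 called higher. The spermatid markers Prm1, Prm2, Tnp1 and Acr were near 0, at no more than 0.0563 CPM in TKO cells and 0.0482 CPM in WT cells at day 7. The 6 primordial germ cell markers, by contrast, summed to 27.4 to 31.7 TPM in TKO libraries and 29.7 to 36.3 TPM in WT libraries at day 7, with 0 called higher and Prdm1 called lower. The 6 fibroblast markers summed to 19.2 to 20.2 TPM in TKO libraries and 18 to 18.6 TPM in WT libraries, with Dcn called higher. The 5 naive markers summed to 24.7 to 45 TPM in TKO libraries and 12.7 to 14 TPM in WT libraries at day 4, with 4 called higher in TKO cells and 0 lower. At day 7 they summed to 12.4 to 14.5 TPM in TKO libraries and 5.15 to 6.01 TPM in WT libraries, with 3 called higher and 1 lower. At day 0 they summed to 1167 to 1170 TPM in TKO libraries and 800 to 1036 TPM in WT libraries, with 0 called. Dnmt3b, read here as a gene targeted in TKO cells, is among the 4 epiblast-like markers. These markers summed to 504 to 508 TPM in TKO libraries and 773 to 844 TPM in WT libraries at day 7. Of them 0 were called higher and 3 lower. Dnmt3b itself averaged 142 TPM in TKO cells and 415 TPM in WT cells on that day. Fgf5 averaged 250 TPM in TKO cells and 178 TPM in WT cells, Otx2 106 and 203 TPM, and Pou3f1 8.64 and 13.1 TPM. The part of these other cell states in the levels of the 10 genes was not tested.

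Ordered by mean TPM over the 16 libraries, the genes were Stag3 at 27.6, Hormad1 at 20.7, Sycp3 at 19.4, Rec8 at 12, Syce1 at 11.9, Stra8 at 6.62, Smc1b at 6.27, Sycp1 at 4.49, Dmc1 at 3.74 and Sycp2 at 1.54. Neighbours in this order overlap widely across the groups. Across the 8 group means of log2 CPM, the patterns of Syce1 and Hormad1 (Pearson r = 0.96), Hormad1 and Stag3 (0.95) and Stag3 and Smc1b (0.95) were the most alike of all pairs, while Sycp2 and Sycp3 were at 0.01. Of 14859 candidate genes outside the 10, the most like Stag3 were Rbmxl2 (0.990), Wdr64 (0.987) and Prr23a3 (0.986), and the most like Hormad1 were Sohlh2 (0.996), Dmrtc1c1 (0.988) and Tuba3a (0.985). Those most like Sycp3 were Kctd19 (0.969), Rab9 (0.949) and Dscc1 (0.945), and those most like Rec8 were Ldhc (0.997), Gsdme (0.982) and Sdr39u1 (0.967). The nearest to Syce1 were mt-Cytb (0.989), Wbp2nl (0.987) and Tex11 (0.987). Such values rest on 8 points from the same 16 libraries and are given as descriptions.

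Most genes drew their counts from a main transcript. Smc1b-201 held 99.9% of the counts of Smc1b, Syce1-201 99.3%, Rec8-201 95.9%, Sycp1-201 94.2%, Sycp2-201 90.2% and Sycp3-201 86.1%. Hormad1 was divided between Hormad1-201 (55.5%) and Hormad1-202 (39%), and Dmc1 between Dmc1-201 (56.1%) and Dmc1-202 (30.5%). Stra8 was divided among Stra8-203 (70.1%), Stra8-202 (16%) and Stra8-201 (11.7%). Stag3 had 50.3% in Stag3-201, 15.1% in Stag3-209 and 18.3% in Stag3-203, which is annotated as a retained intron, so that part of its level may not be spliced messenger RNA. The division between transcripts of a gene is estimated by kallisto and was not tested here.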

How the data were processed

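Bulk RNA was measured in 16 libraries made with a stranded messenger RNA kit, per the labels' protocols. Per the file headers, each deposited table gives estimated counts (expected counts, not normalised), TPM scaled for depth and length, and other values, the effective lengths, for every transcript. Kallisto, with no version, and the builds GRCm38 and mm10 are named in the submitters' processing notes; the transcript annotation is not given in the sources used here. Of 119414 transcripts, 116728 (97.8%) matched GENCODE vM21 by identifier, version removed; the rest held 0.96% to 1.07% of counts. Counts were summed over 35975 genes and rounded.

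The test was edgeR 4.0.16's, run in R 4.3.3 (TMM, filterByExpr, robust quasi-likelihood, 1 mean per group over all 16 libraries, 8 residual degrees of freedom), with Benjamini-Hochberg adjustment over 18489 genes and calls at 0.05. The fit was tested on simulated data. Each SE is the size of the log2 fold change divided by the root of its F value. Where a group held few counts, as for Sycp2 in WT cells at day 7, this SE can be smaller than the counting error. CPM is counts over effective library size, 34645004 to 57999896. TPM was summed per gene for levels. The p-values weigh each difference against the spread between replicates, with 1 estimate per gene shared by the groups. Whether that spread covers differences between clones is not known, as the number of clones is not given. Intervals and floors cover counting error only, at 95% and 3 counts. Promoter sequences are RefSeq's, on GRCm38.p6. Gene positions are from GENCODE vM21 on GRCm38.

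Named were all 10 genes, Dnmt1, Dnmt3a, Dnmt3b and the mitotic counterparts. Of each other list, at most 3 called genes a direction with the lowest adjusted p were named, or the 2 highest in TPM where none was called, and the 3 genes most like a member for the members highest in mean TPM. Some listed genes are not reported here. Spo11 and the markers were named after their values were seen. The genes, lists and rule were chosen with earlier results of these data known. Alternatives were DESeq2 1.42.0 size factors and Wald test, other filters, a length offset, a replicate block, the compared libraries alone, and each library left out.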

Additional observations from a re-analysis of the deposited data

Results flagged for a closer look

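A change of the TKO over WT difference with time was tested as an interaction with edgeR over all genes and adjusted by Benjamini-Hochberg. The changes that were called are listed here. Of all genes tested, 5.76% were called upward and 1.8% downward between days 0 and 2. The shares were 11.6% and 4.67% between days 0 and 4, and 15.8% and 11.3% between days 0 and 7. All values are on the log2 scale, positive where the difference moved toward TKO, and each contrast shares the day 0 libraries. Sycp3 moved by -1.36 between days 0 and 2 and by -1.82 between days 0 and 4. Dmc1 moved by 2.25, 1.94 and 1.85 between day 0 and days 2, 4 and 7, and Rec8 by 0.89, 1.52 and 3.98. Between day 0 and day 4, Sycp2 moved by 2.43, Syce1 by 1.74, Hormad1 by 3.98, Stag3 by 0.48, Smc1b by 2.50 and Stra8 by 4.73. Between day 0 and day 7, Sycp2 moved by 8.96, Stag3 by 1.09 and Smc1b by 3.98. The Sycp2 value rests on 3 counts in each WT library of day 7. The fitted day 7 values of Syce1, 9.61, and Hormad1, 11.85, rest on 1 and 0 counts in WT cells, depend on the prior count and are no bounds. The call was lost for Rec8 between days 0 and 2 without WT day 2 replicate 1 (adjusted p = 0.0571), TKO day 0 replicate 1 (0.0568) or 2 (0.0605), or TKO day 2 replicate 2 (0.0762). It was lost for Stag3 between days 0 and 4 without WT day 4 replicate 1 (0.0792), TKO day 0 replicate 1 (0.0888) or 2 (0.0601), or TKO day 4 replicate 1 (0.0571).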

How the results depend on the processing

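The number of the 10 genes called between genotypes was within 1.5 times its value under DESeq2 size factors, the DESeq2 Wald test, no filter, a filter at 1 CPM in 2 libraries and an effective length offset, on all 4 days. In the fit with only the libraries compared, 2 were called at day 0, where 7 had been, and 6 at day 2, where 3 had been. Leaving out each library in turn gave 3 to 6 calls at day 0, 1 to 3 at day 2, 7 to 8 at day 4 and 7 in every case at day 7; the cause was not tested. For Sycp1 at day 0 the log2 fold change ran from -0.60 to 1.00 as each library was left out, and it was 1.00 (adjusted p = 0.0138) without WT replicate 2. Smc1b at day 4 lost its call with no filter (0.115), the length offset (0.0618) and only the libraries compared (0.189), and Sycp2 lost its calls under the length offset at day 0 (0.0702), day 2 (0.0758) and day 4 (0.0852). Over all genes, 2343 were called at day 0, and 359 with only the libraries compared, 4293 without WT replicate 2, and 700 and 687 without TKO replicates 1 and 2. At day 2, 2482 were called, and 1612 with the length offset, 661 without WT replicate 2, and 955 and 579 without TKO replicates 1 and 2. At day 4, 5342 were called, and 2821 with only the libraries compared. The other listed meiosis genes called were 6 with the length offset at day 0 where 11 had been, 3 at day 2 where 5 had been, and 12 with only the libraries compared at day 4 where 22 had been. With a replicate block, 7, 3, 8 and 7 of the 10 genes were called between genotypes in the order of the days, as without it, and the block ended a call only for Hormad1 in WT cells at day 2 over day 0 (adjusted p = 0.0535), among the comparisons reported here. Deviations of same-numbered libraries correlated at 0.02, -0.03, -0.10 and 0.04 on days 0, 2, 4 and 7, so the numbers are not taken to pair them. With 2 libraries per group the depth limits Sycp2 at day 0 and in WT cells at day 7. It also limits Stra8 from day 4 and Dmc1 in TKO cells at day 0. These groups held few counts.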
